A study of Rattus norvegicus with 15 samples.

Results

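Retinoids are the vitamin A family, and the 9 genes described here carry, bind or convert them: Stra6 and Rbp4, which bring retinol to cells, the short-chain dehydrogenases Rdh10, Rdh11 and Dhrs3, which interconvert retinol and retinaldehyde, the retinaldehyde dehydrogenases Aldh1a1, Aldh1a2 and Aldh1a3, which make retinoic acid, and Crabp2, which hands retinoic acid to its receptors. They were measured in testes of irradiated and control LBNF1 rats, a laboratory F1 hybrid. The arrays were Affymetrix 3′ arrays, which read each transcript through probe sets of short oligonucleotides. The irradiated group comprised 5 samples taken after a dose of 6 Gy to the lower abdomen, and the control group comprised 10 samples placed before irradiation by their source label. All rats were between 25 and 27 weeks of age. The protocol text is the same for every sample. How long after irradiation the testes were taken was not stated in the labels. The sample titles call every sample a biological replicate. The members were found as probe sets whose only annotated gene symbol was one of the 9, of 14217 genes with such a probe set. This gave 14 probe sets: 5 for Stra6, 2 for Rdh10 and 1 for each of the other 7 genes.

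In the testis, retinoic acid drives spermatogonia to differentiate and enter meiosis and later helps the release of sperm. The acid is made inside the organ from retinol in 2 oxidation steps, and in mice both Sertoli cells and germ cells hold enzymes for it. Cyp26 enzymes break it down, and it acts through the nuclear receptors Rara, Rarb and Rarg paired with Rxr partners.

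The promoters of the 3 retinaldehyde dehydrogenase genes are shown because these close relatives did not move in the same direction. They are RefSeq windows of 300 bases on the rat assembly GRCr8, from 250 bases before the annotated start to 50 after it, written along the gene, and 8 of the 9 genes had an entry. Capitals mark CCAAT, the box bound by the factor NF-Y, and ATGCAAAT, the octamer bound by POU factors.
Aldh1a1, chr1:227537370-227537669, plus strand: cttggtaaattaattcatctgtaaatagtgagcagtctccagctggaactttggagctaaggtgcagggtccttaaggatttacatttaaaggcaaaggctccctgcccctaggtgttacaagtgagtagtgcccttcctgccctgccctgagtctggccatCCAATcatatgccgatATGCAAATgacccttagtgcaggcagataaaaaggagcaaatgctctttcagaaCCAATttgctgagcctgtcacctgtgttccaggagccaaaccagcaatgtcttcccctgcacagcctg
Aldh1a2, chr8:80758391-80758690, plus strand: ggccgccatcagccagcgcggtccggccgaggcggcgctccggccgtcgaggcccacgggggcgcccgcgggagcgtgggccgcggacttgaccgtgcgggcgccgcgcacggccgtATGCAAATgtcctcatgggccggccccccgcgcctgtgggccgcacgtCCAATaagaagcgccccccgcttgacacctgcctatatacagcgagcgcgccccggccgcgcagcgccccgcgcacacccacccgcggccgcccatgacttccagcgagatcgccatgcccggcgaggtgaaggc
Aldh1a3, chr1:129427594-129427893, minus strand: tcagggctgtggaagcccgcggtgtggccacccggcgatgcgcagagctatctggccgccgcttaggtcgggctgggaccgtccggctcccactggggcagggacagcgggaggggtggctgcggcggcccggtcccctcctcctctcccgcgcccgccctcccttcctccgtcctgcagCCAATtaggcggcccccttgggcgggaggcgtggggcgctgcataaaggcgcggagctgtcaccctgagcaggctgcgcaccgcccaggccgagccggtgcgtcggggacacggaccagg
Searched on both strands, the octamer was in the Aldh1a1 window, 72 bases before the start, and in the Aldh1a2 window, 133 bases before it, and in 1.78% of all 33469 windows of this length. No other of the 8 windows held it, and in none of the windows did it overlap a CCAAT. The CCAAT box was in all 3 windows shown, in those of Rdh11 and Dhrs3, and in 37.5% of all windows. The windows differed in base composition: the G and C share was 48.3% for Aldh1a1, against 76.0% for Aldh1a2 and 74.3% for Aldh1a3, with a median of 51.7% over all windows. The DR5 repeat (the letters AGGTCA, then the same letters again after a gap of 5), one form of retinoic acid response element, was in none of the 8 windows and in 0.00896% of all. Such matches describe letters only.

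The genes of the first and the second oxidation step did not move as one. Of the 9 genes, 7 had a probe set that passed the filter on low signals and was tested. Aldh1a1, Aldh1a3 and Dhrs3 were higher and Aldh1a2, Rdh10, Rdh11 and Stra6 lower in irradiated testes on the deposited scale, whereas Aldh1a3 and Dhrs3 were lower relative to Leydig cell markers in the same arrays. All 7 passed an adjusted p of 0.05 (limma, Benjamini-Hochberg over 18711 probe sets), where 85.5% of the 10841 genes tested did, 47.6% higher and 37.9% lower, so that being called says little in these samples. The changes were large for 6 of the 7, at least 4-fold either way, which 26.5% of all genes tested showed. The 2 groups did not overlap in any of the 7, against 69.5% of all genes tested. The median change of the 7 was -0.65 on the log2 scale, beside 0.20 for all genes tested. Because whole testes were measured, fewer cells of a type and less RNA per cell cannot be told apart.

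**Figure D1:**
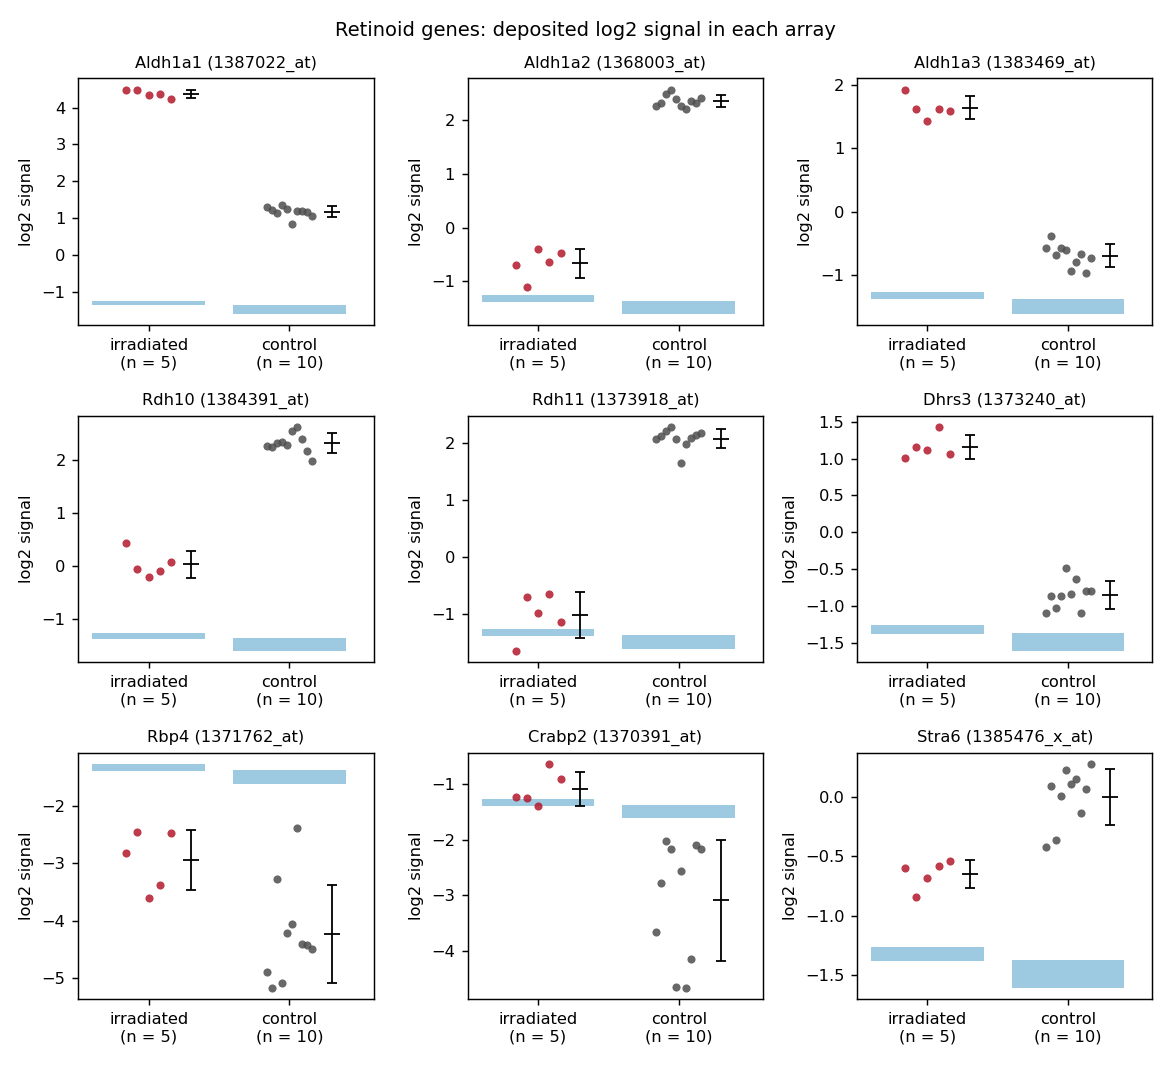
Deposited log2 signal of the 9 retinoid genes in each of 5 irradiated (red) and 10 control (grey) arrays. Dots are arrays, bars are the mean and SD, and the blue band spans the array medians of the group. Aldh1a1, Aldh1a3 and Dhrs3 lay higher and Aldh1a2, Rdh10, Rdh11 and Stra6 lower in all irradiated arrays, Rbp4 lay under the median in all arrays, and the signals of different genes cannot be set against each other.

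Many cell type markers moved in the same comparison, and their part in the results was not tested. All 9 tested spermatocyte markers fell, with a summed linear signal of 1.94 to 2.49 in irradiated arrays and 82.4 to 123 in control arrays, and the 9 that lay under the array median in all irradiated arrays included Sycp1, Sycp3 and Ldhc. All 8 tested round spermatid markers fell, with sums of 2.07 to 2.85 in irradiated and 60.1 to 76.6 in control arrays, and so did all 15 of elongating spermatids, with sums of 2.15 to 5.02 in irradiated and 504 to 752 in control arrays. Of these, 6 round and 9 elongating spermatid markers lay under the median in all irradiated arrays. Here and below, a marker under the median in all arrays of 1 group could pass the filter only through the other group. The direction of such a marker is no further support. The spermatogonial list was mixed, with 5 of 9 higher and 2 lower and sums of 15.3 to 19.3 in irradiated and 7.51 to 8.44 in control arrays. Its genes Ret, Lin28a, Sall4 and Sohlh1 lay under the median in all arrays of both groups, Gfra1 in all irradiated arrays, and Kit and Cd9 in all control arrays. Most tested markers of somatic cells rose: 17 of 17 for Sertoli cells (sums of 192 to 263 in irradiated and 47.3 to 62.9 in control arrays), 16 of 16 for Leydig cells (134 to 160 in irradiated, 13.5 to 18.6 in control), 12 of 12 for peritubular myoid cells (45.3 to 55.2 in irradiated, 11.9 to 15.5 in control), 12 of 15 for macrophages (30.7 to 35.4 in irradiated, 13.9 to 18.5 in control) and 10 of 12 for endothelium (11 to 13.5 in irradiated, 3.82 to 5.16 in control). Of the others, 2 macrophage markers and 1 endothelial marker fell. Under the median in all irradiated arrays lay 4 Sertoli, 2 macrophage and 2 endothelial markers. Under it in all control arrays lay 4 Sertoli, 1 Leydig, 3 peritubular myoid, 5 macrophage and 5 endothelial markers. Lymphocyte markers summed to 2.79 to 3.26 in irradiated and 1.99 to 2.98 in control arrays, liver and kidney markers to 0.898 to 1.32 in irradiated and 1.21 to 1.68 in control arrays, and epididymal markers to 1.41 to 1.74 in irradiated and 3.53 to 4.44 in control arrays. Control replicates 6, 7 and 8 had the highest differences between 3′ and 5′ actin probe sets, a sign of RNA quality, at 1.89, 1.37 and 1.44 log2 units, and without these 3 arrays the changes of the 7 genes kept their direction and call.

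Stra6 and Rbp4 stand at the supply end. Rbp4 is the plasma carrier of retinol, and Stra6 is the membrane receptor that takes retinol from it. Rbp4 (1371762_at) had log2 signals of -2.82, -2.45, -3.60, -3.38 and -2.46 in the 5 irradiated samples, against a lowest of -5.18, a median of -4.41 and a highest of -2.38 in the control samples. All 15 values lay under the median of their array, which was taken here as the limit below which a signal only bounds the level, since no detection calls were used. Rbp4 was therefore not tested, and no size of change is given.

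Stra6 fell in each of its 4 tested probe sets. The probe set with the highest signal (1385476_x_at) gave -0.60, -0.84, -0.68, -0.58 and -0.54 in irradiated samples, and in control samples a lowest value of -0.42, a median of 0.08 and a highest of 0.28. Every irradiated sample was below every control sample, by 0.12 log2 units at the closest. The change was -0.65 ± 0.12 (SE, adjusted p = 7.38e-05), or 1.57-fold lower, the smallest of the 7 genes. The suffix of this probe set marks probes that may also bind other transcripts. Probe set 1385475_a_at, designed from the same source sequence, changed by -0.99 ± 0.17 (adjusted p = 4.68e-05), without overlap between the groups. Probe set 1376962_at changed by -0.57 ± 0.15 (adjusted p = 0.00205), with overlapping groups of -1.43 to -0.61 in irradiated and -0.81 to -0.14 in control samples. Probe set 1390525_a_at, which shares its source sequence with 1376962_at, was under the array median in all 5 irradiated samples. It was at least 1.45-fold lower there, a change of -0.53 with values raised to the array median (limma, adjusted p = 0.00202). It passed the filter through the control samples alone, so that its direction is no further support. The fifth, 1381606_at, failed the filter, lying under the median in 5 irradiated and 6 control arrays. Over all 14 probe sets of the 9 genes, 10 were tested and passed, 3 higher and 7 lower on the deposited scale, and 9 of the 10 did not overlap between groups. These counts include 1390525_a_at. Of all probe sets tested, 83.4% passed, 49.0% higher and 34.3% lower, and 65.5% did not overlap. Leaving aside 1390525_a_at, the tested Stra6 probe sets thus went one way. As all 4 rest on 2 source sequences, they are not independent readings.

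The dehydrogenases of the first step split. Rdh10 oxidises retinol to retinaldehyde, the step that limits retinoic acid synthesis in mouse embryos. Rdh10 (1384391_at) had signals of 0.44, -0.06, -0.21, -0.10 and 0.07 in irradiated samples, against 1.98 (lowest), 2.30 (median) and 2.63 (highest) in control samples. The groups were 1.54 log2 units apart at the closest, and all 5 irradiated values stayed above their array medians. Its change was -2.29 ± 0.12 (SE, adjusted p = 1.04e-11), or 4.90-fold lower. Its other probe set (1390079_at) was under the median in all irradiated and 9 of 10 control arrays and was not tested, although its values of -4.03 to -2.87 in irradiated samples were also all below the -2.10 to -1.36 of control samples.

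Rdh11 and Dhrs3 are known chiefly for the reverse reaction, the NADPH-dependent reduction of retinaldehyde to retinol. Rdh11 (1373918_at) gave -1.65, -0.70, -0.98, -0.65 and -1.14 in irradiated samples and a lowest of 1.66, a median of 2.10 and a highest of 2.29 in control samples. Its change was -3.11 ± 0.14 (adjusted p = 2.79e-12), or 8.62-fold lower, and replicate 1 was the only irradiated array in which the signal dropped under the array median. Dhrs3 (1373240_at) went the other way, with signals of 1.01, 1.15, 1.12, 1.43 and 1.06 in irradiated samples against -1.10 (lowest), -0.85 (median) and -0.49 (highest) in control samples. Its change was 2.01 ± 0.11 (adjusted p = 1.88e-11), or 4.02-fold higher, but it turned to -0.23 when arrays were centred on Sertoli markers and to -0.89 when centred on Leydig markers (adjusted p = 0.0953 and 7.38e-07, in a range of 3.85e-13 to 0.0953 over 28 alternatives).

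**Figure D2:**
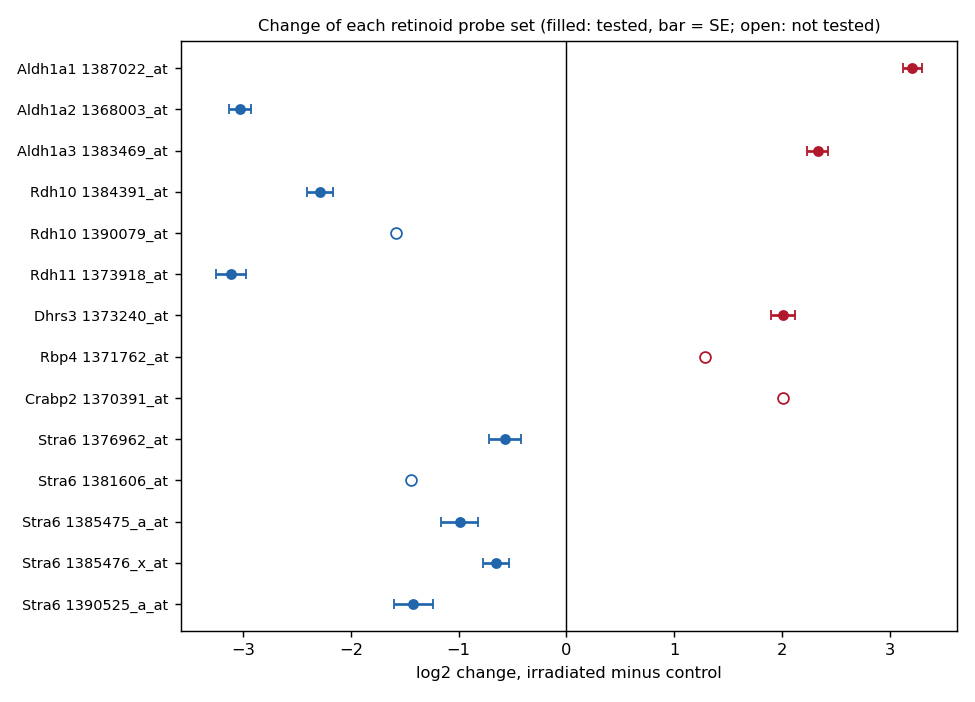
Log2 change, irradiated minus control, of the 14 retinoid probe sets on the deposited scale, with limma's SE for the 10 tested (filled) and no test for 4 with low signals (open), whose positions give no size of change. Among the tested ones, Aldh1a1, Aldh1a3 and Dhrs3 lie to the right of 0 (the last 2 move left of 0 relative to Leydig markers), and the 4 Stra6 probe sets, Rdh10, Rdh11 and Aldh1a2 lie to the left.

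The second step, the irreversible oxidation of retinaldehyde to retinoic acid, showed the widest contrast. Aldh1a1 is found in Sertoli and Leydig cells of rodents and Aldh1a2 in meiotic and later germ cells of mice. Aldh1a1 (1387022_at) had signals of 4.48, 4.49, 4.34, 4.36 and 4.23 in irradiated samples, against a lowest of 0.83, a median of 1.19 and a highest of 1.34 in control samples. The spread within each group was small beside the 2.89 log2 units that separated the closest samples. Its change was 3.21 ± 0.09 (SE, adjusted p = 3.67e-15), or 9.27-fold higher.

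Aldh1a2 (1368003_at) changed by nearly as much in the opposite direction. It had signals of -0.70, -1.10, -0.40, -0.65 and -0.47 in irradiated samples, against 2.21 (lowest), 2.35 (median) and 2.57 (highest) in control samples. The change was -3.03 ± 0.10 (adjusted p = 6.80e-14), or 8.15-fold lower. All 5 irradiated values were still above their array medians, which lay between -1.38 and -1.26.

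Aldh1a3 (1383469_at) had signals of 1.92, 1.62, 1.42, 1.62 and 1.59 in irradiated samples, against -0.97 (lowest), -0.67 (median) and -0.38 (highest) in control samples. It rose by 2.33 ± 0.10 (adjusted p = 1.92e-12), or 5.02-fold, with no overlap. Relative to Sertoli markers its change was 0.09 and did not pass, and relative to Leydig markers it turned to -0.57 (adjusted p = 0.422 and 5.90e-05, in a range of 2.56e-14 to 0.422 over 28 alternatives).

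Crabp2, a carrier that delivers retinoic acid to its nuclear receptors, was low in the control group. Its probe set (1370391_at) gave -1.22, -1.25, -1.38, -0.63 and -0.91 in irradiated samples, against -4.67 (lowest), -2.67 (median) and -2.01 (highest) in control samples. It lay under the array median in all 10 control arrays and reached it in 4 of 5 irradiated arrays, 1 short of the filter, so it was not tested. Every irradiated sample was above every control sample, and set against the control medians the irradiated mean was at least 1.31-fold higher.

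Whether 2 enzymes of one step changed unequally was asked within each array, as the difference of their log2 signals, which a shift of a whole array on the log2 scale cannot move. Of 8 planned pairs, 6 had both genes tested, and an exact permutation test (2-sided) was adjusted over the 6. Where 1 gene rose and the other fell, both without overlap, the difference had to separate too. The p of such a pair is no further support, and its shift gives the size. Aldh1a1 minus Aldh1a2 was 5.18, 5.59, 4.74, 5.02 and 4.70 in the irradiated samples and between -1.45 and -0.95 in the control samples, a shift of 6.24 ± 0.17 (SE, exact permutation p = 0.000666, the smallest this 2-sided test can give, adjusted p = 0.000799). The balance of the 2 probe sets thus moved towards Aldh1a1, by 75.5-fold between the group means, and was above every control sample in 5 of 5 irradiated samples. Aldh1a2 minus Aldh1a3 shifted by -5.35 ± 0.18, with -2.72 to -1.82 in irradiated and 2.71 to 3.30 in control samples. Aldh1a1 and Aldh1a3, which both rose on the deposited scale (Aldh1a3 fell relative to Leydig markers), also differed: Aldh1a1 minus Aldh1a3 was 2.56 to 2.92 in irradiated and 1.62 to 2.15 in control samples, a shift of 0.89 ± 0.08.

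In the first step the balance moved towards Dhrs3 in every irradiated sample. Rdh10 minus Dhrs3 was -1.53 to -0.58 in irradiated and 2.77 to 3.50 in control samples, a shift of -4.30 ± 0.18. Rdh11 minus Dhrs3 was -2.66 to -1.84 in irradiated and 2.50 to 3.24 in control samples, a shift of -5.11 ± 0.16. These 4 further pairs each had an exact permutation p of 0.000666 (adjusted p = 0.000799). Of these, only that of Aldh1a1 minus Aldh1a3 was not fixed in advance by the single genes. The 2 genes that fell differed less: Rdh10 minus Rdh11 was 2.09, 0.63, 0.78, 0.55 and 1.21 in irradiated samples, overlapping the -0.20 to 0.89 of control samples, a shift of 0.82 ± 0.30 (exact permutation p = 0.00666, adjusted p = 0.00666). That shift was 0.56 without irradiated replicate 1, in which Rdh11 was lowest. It did not pass against control replicates 6 to 10 alone (0.72, adjusted p = 0.0794), a set that holds the 3 arrays of high actin difference, and passed against replicates 1 to 5 (0.91, adjusted p = 0.00794).

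**Figure D3:**
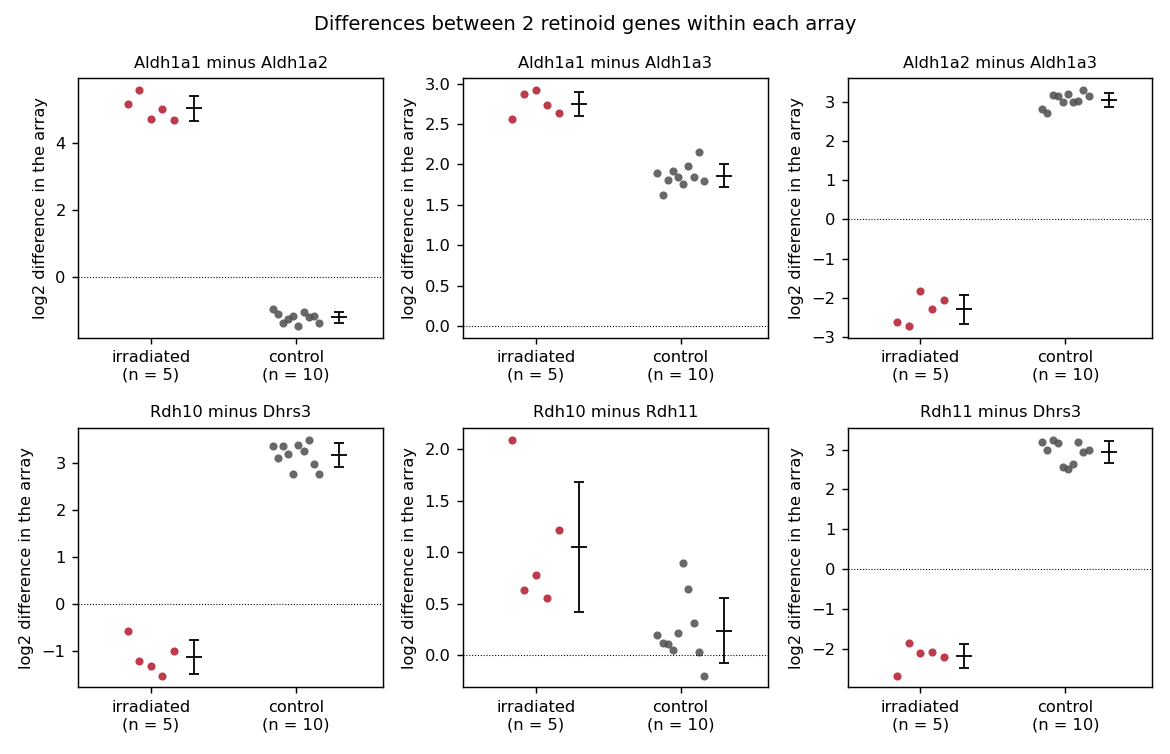
Difference in log2 signal between 2 retinoid genes in the same array, for 5 irradiated (red) and 10 control (grey) arrays, with mean and SD. The groups are apart in 5 of the 6 pairs and overlap for Rdh10 minus Rdh11, and only the distance between groups carries meaning, since the signals of 2 probe sets have no common scale.

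Set against somatic markers, the rises shrank and the falls grew. Centring each array on its mean Sertoli marker signal left Aldh1a1 0.97 ± 0.09 higher (adjusted p = 1.09e-08) and centring on Leydig markers 0.32 ± 0.10 higher (adjusted p = 0.00743, the highest of 28 alternatives, of which the lowest was 1.42e-17). Of the 7 genes, 1 then rose, 4 fell and 2 did not pass relative to Sertoli markers, and 1 rose and 6 fell relative to Leydig markers, against 3 and 4 on the deposited scale. Aldh1a2 changed by -5.27 and -5.92, Rdh10 by -4.53 and -5.19, Rdh11 by -5.35 and -6.00 and Stra6 by -2.89 and -3.55 in these 2 fits. The same shift ran through the whole array: 55.7% of the genes called were higher in irradiated samples as deposited, 7.59% relative to Sertoli markers and 3.09% relative to Leydig markers, with medians over all genes tested of -2.04 and -2.69. Quantile normalization and centring on the array median kept the direction and call of all 7, and put the median of all genes tested at -0.06 and 0.05.

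**Figure D4:**
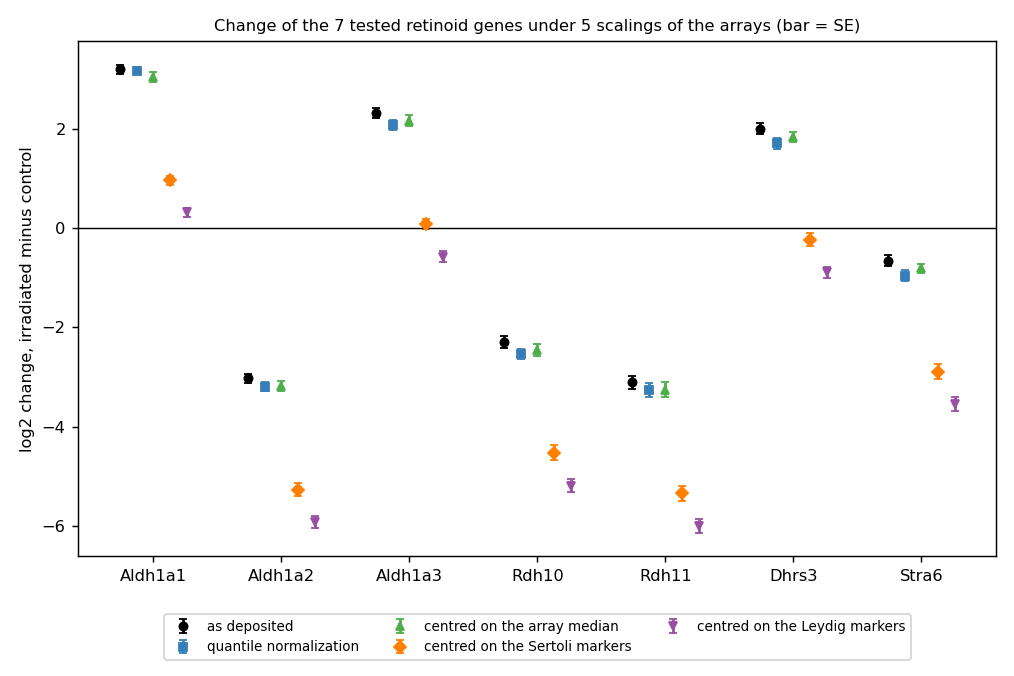
Log2 change, irradiated minus control, of the 7 tested retinoid genes with limma's SE, under 5 scalings. Aldh1a1 stays above 0 and Aldh1a2, Rdh10, Rdh11 and Stra6 below it in all 5, whereas Aldh1a3 falls to 0.09 and -0.57 and Dhrs3 to -0.23 and -0.89 with arrays centred on Sertoli and Leydig markers.

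A further 71 retinoid genes in 5 lists put the 9 in context. On the array were 55, and 32 were tested, of which 16 rose, 8 fell and 8 did not pass, with a median change of 0.36 on the deposited scale. These counts include Lpl and Kit among the rises and Ttr, Cyp26a1, Cyp2s1 and Sycp3 among the falls. Each lay under the median in all arrays of its lower group and passed the filter only through the other group. Their directions are no further support. Of the 16 that rose, 8 had a change below 0 relative to Sertoli markers and 10 relative to Leydig markers, the latter including Scarb1, itself a Leydig marker. The share that passed, 75%, was near the 85.5% of all genes tested.

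Genes of supply, storage and binding went both ways: 4 of 10 tested rose, 5 fell and Fabp5, a fatty acid and retinoic acid binding protein, had a change of 0.11 (adjusted p = 0.228). Ces1d, a carboxylesterase that releases retinol from its esters, averaged 4.78 ± 0.14 in irradiated samples (SD, n = 5) and 1.05 ± 0.28 in control samples (SD, n = 10), a rise of 3.73 ± 0.13 (SE, adjusted p = 1.23e-13). Lpl, the lipoprotein lipase, was under the array median in all control arrays and at least 2.29-fold higher in irradiated ones, a call lost relative to Leydig markers (adjusted p = 0.253). It passed the filter through the irradiated arrays alone. Scarb1, the HDL and carotenoid receptor, rose by 2.41 (0.17 relative to Sertoli and -0.49 relative to Leydig markers, neither passing), and its control signals were partly under the array median, as were those of the fatty acid receptor Cd36. Scarb1 is itself among the Leydig markers, so that its change relative to them is in part relative to itself. Lipe, a lipase that spermatids of mice need, fell by 3.41 in the probe set of highest signal, while another had a change of 0.49 (adjusted p = 0.214). Dgat1, an acyltransferase that can esterify retinol, fell by 1.49, Lrp2 by 0.67 and Crabp1, the other cellular retinoic acid binding protein, by 0.39. Lrp2 lay under the median in 4 of 5 irradiated arrays, and its change was -0.42 with values raised to the array median. Ttr, which carries Rbp4 in plasma, was under the median in all irradiated arrays and at least 1.25-fold lower. It passed the filter through the control arrays alone, so that its direction is no further support. The calls of Ttr and Crabp1 were each lost with part of the control arrays, Ttr against replicates 1 to 5 (-0.47, adjusted p = 0.0729) and Crabp1 against replicates 6 to 10 (-0.33, adjusted p = 0.0652).

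Of 9 tested dehydrogenases and reductases beside the members, 6 rose and none fell on the deposited scale, with a median change of 0.85, where 47.6% of all genes tested were higher and 37.9% lower. After quantile normalization 5 rose and 2 fell, and with arrays centred on their median 6 rose and 1 fell. Akr1b8, an aldo-keto reductase, averaged 2.23 ± 0.13 in irradiated samples (SD, n = 5) and -0.80 ± 0.22 in control samples (SD, n = 10), which is 3.03 ± 0.11 higher (SE, adjusted p = 2.09e-13). Relative to Leydig markers it was 0.14 and did not pass (adjusted p = 0.233, the highest of 28 alternatives, of which the lowest was 1.73e-15). Adh5, an alcohol dehydrogenase, rose by 1.63, Rdh14 by 1.17, Rdh16 by 1.04, Dhrs7 by 0.85 and Dhrs7b by 0.47, and all 5 had changes below 0 relative to Sertoli and to Leydig markers. Rdh16 lay under the median in 9 of 10 control arrays, and its change was 0.40 with values raised to the array median. Dhrs7b did not pass after quantile normalization (0.09, adjusted p = 0.478). Dhrs4, a retinaldehyde reductase, had a change of -0.21 in the probe set of highest signal (adjusted p = 0.235; -0.45 after quantile normalization, adjusted p = 0.017) but 1.96 in another (1370814_at, adjusted p = 1.70e-09). Akr1b10 had a change of -0.13 that did not pass, and was lower after quantile normalization (-0.40, adjusted p = 0.00505) and with arrays centred on their median (-0.29, adjusted p = 0.0357). Rdh5 did not pass and lay under the median in all irradiated and 5 control arrays, so that its change gives no size.

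Among the 3 tested genes of retinoic acid breakdown, Cyp26b1 stood high. This enzyme, made by somatic cells of the mouse testis, degrades retinoic acid. Its probe set 1384392_at averaged 4.44 ± 0.19 in irradiated samples (SD, n = 5) and 1.68 ± 0.31 in control samples (SD, n = 10), a rise of 2.77 ± 0.15 (SE, adjusted p = 2.51e-11), and another probe set rose by 1.91. Relative to Leydig markers the change was -0.13 (adjusted p = 0.498, the highest of 28 alternatives, of which the lowest was 4.98e-13). Cyp2s1 was under the median in all irradiated arrays and at least 2.17-fold lower. Cyp26a1 was under it in all irradiated and 5 control arrays, so that its change gives no size. With values raised to the array median, Cyp26a1 changed by 0.08 and did not pass (limma, adjusted p = 0.404). Both genes passed the filter through control arrays alone, so that their directions are no further support.

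Of 5 tested receptors, Rxrb rose by 0.49 ± 0.18 (adjusted p = 0.0199; -1.75 relative to Sertoli markers) and 4 did not pass, that is 20.0% called, against 85.5% of all genes tested. The call of Rxrb was lost without irradiated replicate 2 or 3 (changes of 0.44 in both) and after quantile normalization (0.21). It was also lost with arrays centred on their median (0.34) and with arrays blocked by replicate number (0.29). Rara had a change of -0.15 with a 95% interval from -0.52 to 0.22, Rarb of 0.04 (-0.25 to 0.33), Rarg of 0.26 (0.0 to 0.52) and Rxrg of 0.16 (-0.09 to 0.41). After quantile normalization Rara was lower and passed (-0.51, adjusted p = 0.0125). Rarg lay under the median in 8 of 10 control and 2 of 5 irradiated arrays. It passed without any 1 of control replicates 1, 9 and 10 and irradiated replicates 1 and 4 (0.28 to 0.34). In limma it also passed with array weights (0.27, adjusted p = 0.0394) and with values raised to the array median (0.18, adjusted p = 0.00951). Rxrg passed against control replicates 1 to 5 (0.33, adjusted p = 0.0132). It also passed without the control arrays of high actin difference (0.27, adjusted p = 0.0308) and with arrays blocked by replicate number (0.33, adjusted p = 0.0138). These intervals leave room for small changes, and relative to Sertoli markers all 5 receptors were lower.

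In the list of retinoic acid targets and germ cell response genes, 4 of 5 tested rose and 1 fell on the deposited scale, where 85.5% of all genes tested passed, 47.6% higher and 37.9% lower. The 4 that rose are not germ cell genes alone: Rarres2 (3.93 ± 0.11), which encodes the secreted protein chemerin, Tgm2 (2.22 ± 0.09), a transglutaminase, and Rarres1 (1.88 ± 0.13) are expressed in many somatic tissues, and Kit, which was under the median in all control arrays and at least 3.45-fold higher in irradiated samples, is also a Leydig cell gene. Relative to Sertoli markers Tgm2 changed by -0.02 and Rarres1 by -0.36, and relative to Leydig markers by -0.67 and -1.02. Kit kept its call relative to Sertoli markers (adjusted p = 0.0476) and lost it relative to Leydig markers (adjusted p = 0.977), with control values that only bound its level. The gene that fell was Sycp3, a component of the meiotic chromosome axis, which was under the median in all 5 irradiated arrays and at least 45-fold lower. Kit and Sycp3 each passed the filter through 1 group alone, so that their directions are no further support.

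**Figure D5:**
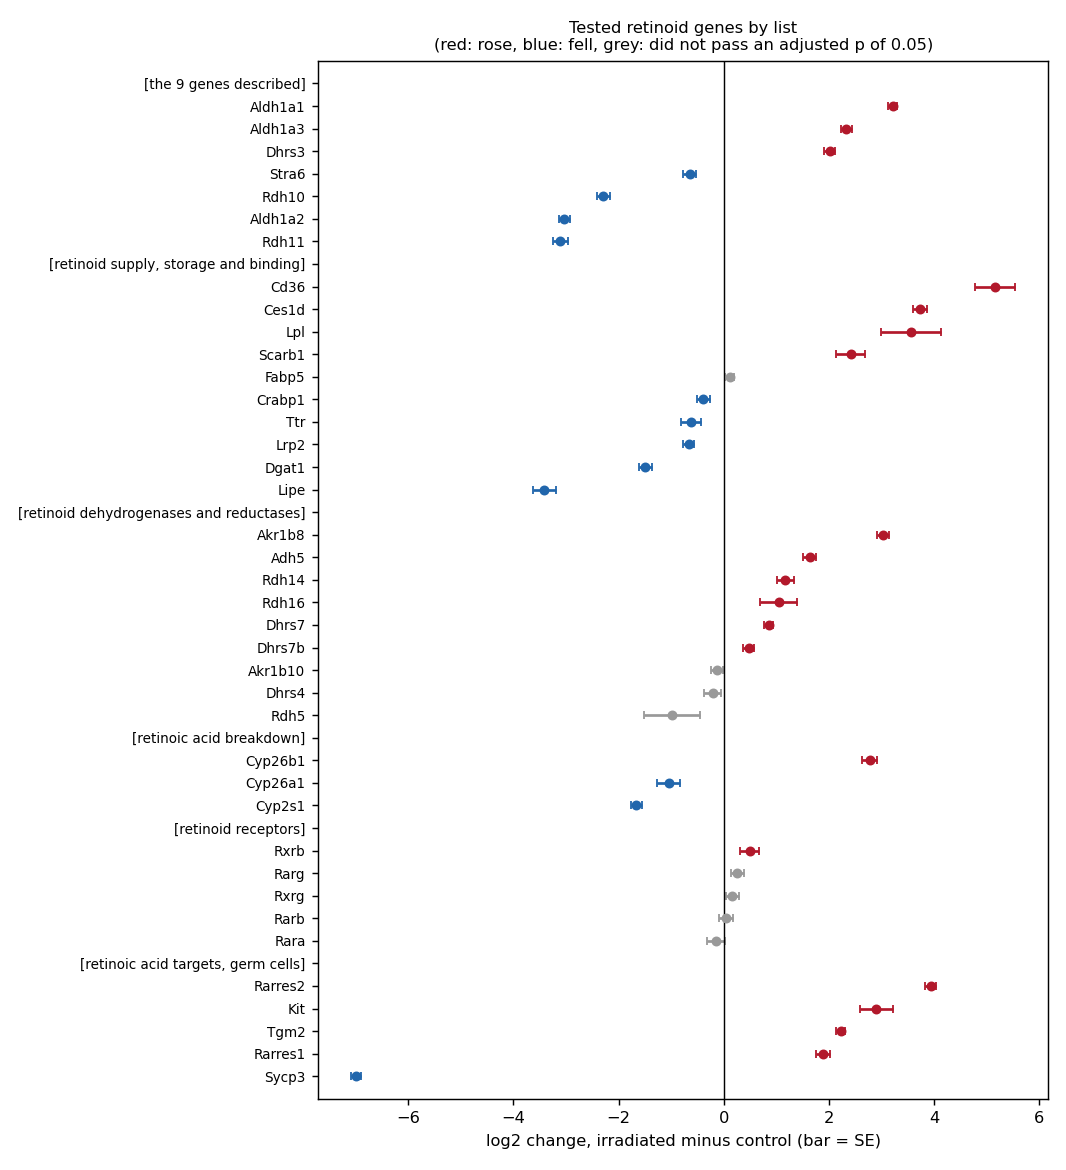
Log2 change, irradiated minus control, of the 7 tested genes and of 32 further tested retinoid genes by list, with limma's SE, on the deposited scale. Red genes rose, blue genes fell and grey genes did not pass an adjusted p of 0.05, which 4 of 5 receptors did not, and of the 16 further genes in red 10 lie below 0 relative to Leydig markers. The positions of Lpl, Kit, Ttr, Rdh5, Cyp2s1, Cyp26a1 and Sycp3, which lay under the array median in all arrays of a group, give no size.

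The genes whose pattern was nearest to each member were found as those with the smallest root mean square difference over the 15 arrays after each probe set was centred on its own mean, a description that mostly reflects the size of the group difference. For Aldh1a1 they were Ywhag and Acsbg1 (0.10 and 0.12 log2 units), for Aldh1a2 Itpka and Supt20h (0.14 and 0.15), and for Aldh1a3 Plekha3 and Dynlrb1 (0.11 and 0.12). For Rdh10 they were Poc1b and Xpo6 (0.11 and 0.14), for Rdh11 Plk1 and Hagh (0.17 and 0.19), for Dhrs3 Mllt6 and Sft2d2 (0.14 and 0.15), and for Stra6 Gpkow and Coq5 (0.11 and 0.12).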

How the data were processed

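The deposited table holds 1 log2 signal per probe set and array, and MAS5, with no version, is the tool the submitters' processing notes name. The sources used here do not say how the authors scaled, filtered and logged the values. Base 2 was inferred from spike-in probe sets, whose values rose by 0.879 units per doubling in irradiated and 0.861 in control arrays. Both are short of the full unit of an uncompressed base 2 scale. The fold values rest on this inference, and the zero point is unknown. Values were used as deposited, with no array column unused (0 columns). Precision is limited by the number of arrays.

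The platform annotation gave the gene names: 20826 had 1 symbol, 436 several and 9780 none. The 57 control probe sets were left out. A probe set was tested if 5 or more of the 15 arrays had it at or above their median, which kept 18711. One under the median in all arrays of 1 group passed through the other group alone, which favours the direction found. The comparison of the groups used lmFit and eBayes (2-sided) of limma 3.58.1 under R 4.3.3, tested on simulated data. The tested probe set of highest mean stood for a gene. Exact permutation tests used scipy 1.17.1. All probe sets of the 9 genes are named, and from the retinoid lists any tested gene could be, with the 2 genes nearest in pattern to each member. The members and lists were chosen with earlier results of these data known. Alternatives were other scalings, filters, probe sets, array weights, a replicate block and left-out arrays.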

Additional observations from a re-analysis of the deposited data

Results flagged for a closer look

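Within a group, an array was singled out where its gap to the nearest other array exceeded Dixon's limit for the group's size. Chance does this in about 1 of 20 groups of values, and 9 of 104 were singled out here. Among the 9 genes described, this was Rdh11 in control replicate 6, with a log2 signal of 1.66 against 1.99 in the next lowest control array. That array also had the highest difference between 3′ and 5′ actin, and the part of RNA quality was not tested.

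The other 8 were low values of further retinoid genes. Among irradiated arrays these were Rdh5 in replicate 2 (-5.04) and Lpl in replicate 3 (-0.56). Among control arrays they were Rdh5 in replicate 3 (-4.32), Adh5, Lipe and Sycp3 in replicate 9 (-0.50, 1.48 and 3.83), Rdh14 in replicate 7 (-2.28) and Dhrs4 in replicate 4 (-1.36).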

How the results depend on the processing

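The 7 tested genes kept direction and call under every alternative run, except Aldh1a3 and Dhrs3. With arrays centred on Sertoli and on Leydig markers, Aldh1a3 changed by 0.09 and -0.57 and Dhrs3 by -0.23 and -0.89. Among further genes, the same 2 centrings gave Tgm2 -0.02 and -0.67, Rarres1 -0.36 and -1.02, Fabp5 -2.13 and -2.78, Adh5 -0.61 and -1.27, Rdh14 -1.07 and -1.72, Rdh16 -1.20 and -1.86, Dhrs7 -1.39 and -2.05, Dhrs7b -1.77 and -2.43, Rarb -2.20 and -2.86, Rarg -1.98 and -2.63, Rxrb -1.75 and -2.40, and Rxrg -2.08 and -2.74. Centring on Leydig markers also turned Cyp26b1 to -0.13 and Scarb1, itself among these markers, to -0.49. These centrings remove the mean shift of the markers by construction. Cyp26a1 changed by 0.08 with values raised to the array median, and Dhrs4 by 1.96 in its probe set of largest variance. The count of probe sets called was 15598, and 9442 with the filter at the 75th percentile, which tested fewer (10448). Rdh10 minus Rdh11 shifted by 0.72 against control replicates 6 to 10 (adjusted p = 0.0794).

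Leaving out 1 array gave 15217 to 15649 probe sets and 9070 to 9288 genes called. The changes were 3.18 to 3.25 for Aldh1a1, -3.09 to -2.92 for Aldh1a2, 2.26 to 2.38 for Aldh1a3, -2.39 to -2.23 for Rdh10, -3.20 to -2.95 for Rdh11, 1.94 to 2.05 for Dhrs3 and -0.70 to -0.60 for Stra6. The pair shifts were 6.10 to 6.33 for Aldh1a1 minus Aldh1a2, 0.84 to 0.93 for Aldh1a1 minus Aldh1a3, -5.47 to -5.25 for Aldh1a2 minus Aldh1a3, -4.44 to -4.20 for Rdh10 minus Dhrs3, 0.56 to 0.94 for Rdh10 minus Rdh11 and -5.20 to -4.99 for Rdh11 minus Dhrs3.

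Samples of the 2 groups share only replicate numbers: same-numbered deviations correlated between -0.0473 and 0.0692. With the replicate block, 15123 probe sets and 8950 genes were called. The pair shifts, each over 5 pairs, were 6.20, 0.93 and -5.27 among the Aldh1a genes, -4.29 for Rdh10 minus Dhrs3, 0.91 for Rdh10 minus Rdh11 and -5.20 for Rdh11 minus Dhrs3, all with an exact p of 0.0625, the smallest that 5 pairs allow.

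Signals under the array median limit what can be said of Rbp4, Crabp2 and the low Rdh10 and Stra6 probe sets. The time after irradiation is unknown, and cell type markers differ between the groups.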
